A study of Eisenia fetida with 6 samples.

Results

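In the intestine of the earthworm Eisenia fetida, 179 single unigenes were nearly lost after exposure to tri-n-butyl phosphate (TnBP), out of 47552 single unigenes and 55641 assembled contigs in all. A single unigene is an assembled transcript sequence that the assembly did not place in a cluster with similar contigs. The 179 members were chosen by their change itself. Each is under 5000 bases long and took on average under 0.1% of the expected counts of a control library. Each averaged an N of at least 100 in controls and at least 8 times its mean N in TnBP libraries, with its lowest control N above its highest TnBP N. N is the expected read count divided by the DESeq2 size factor of the library. The difference between the groups is thus given as a description of the members and is not tested.

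The exposed group was adult worms kept in artificial soil with 10 mg/kg TnBP. As far as the labels tell, the control group was kept alike, with no TnBP named in its label. No label tells if controls received a solvent. The labels give 14 days for the soil test. Each group has 3 libraries, and each library is a pool of the intestines of 3 worms, so levels in single worms were not measured. In bulk tissue, fewer cells of a type and less RNA per cell cannot be told apart. The libraries held 9494666 to 9643939 expected counts in the TnBP group and 8435554 to 9099412 in the control group. The size factors were 1.31 to 1.43 for TnBP libraries and 0.708 to 0.796 for controls. The same N therefore rests on more counts in a TnBP library than in a control library. No label tells if the pools of a group shared a container. If they did, the SDs and the edgeR calls would not cover differences between containers. TnBP and container could then not be told apart. The spread between libraries may also be partly technical.

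TnBP is an ester of phosphoric acid with butyl chains, used as a solvent, plasticizer and flame retardant. The earthworm gut takes up nutrients through an epithelium that is enlarged by an inner fold, the typhlosole, and is wrapped in chloragogen tissue, which stores glycogen and lipid and takes part in detoxification. Swallowed soil passes along this epithelium, so the gut meets soil chemicals directly. The files name contigs only by assembly number and hold no sequences, so no gene name, pathway or cell type marker could be looked up, and the tissue label was not checked against markers. The members are described by level, by what remained in each exposed pool, by length and by the form of their counts.

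Of 3493 unigenes that met the conditions on length, share and control level, the 179 members were 5.13%. They are described in 3 classes by what remained after TnBP. A total of 33 members had 0 counts in all 3 TnBP libraries, 78 had a few reads and stood below 1% of their control level, and 68 kept 1.19% to 12.5% of it, with a median of 8.62%. The limit of 1% was set after the values had been seen, and 8 members lay between 0.5% and 2%. For the count by fold, members with fewer than 3 summed TnBP counts, absent ones included, were set at a lower bound. That bound takes 3 counts over the TnBP group. So counted, 54 members were 8 to 16 times lower, 10 were 16 to 32, 3 were 32 to 64 and 3 were 64 to 128. The steps up to 256, up to 512 and above held 50, 41 and 18. Without the bound, the 78 members with a few reads had a median fold of 525, so the top step is understated. Few members thus lay between a large group near the 8-fold limit and another at well over 100-fold.

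**Figure D1:**
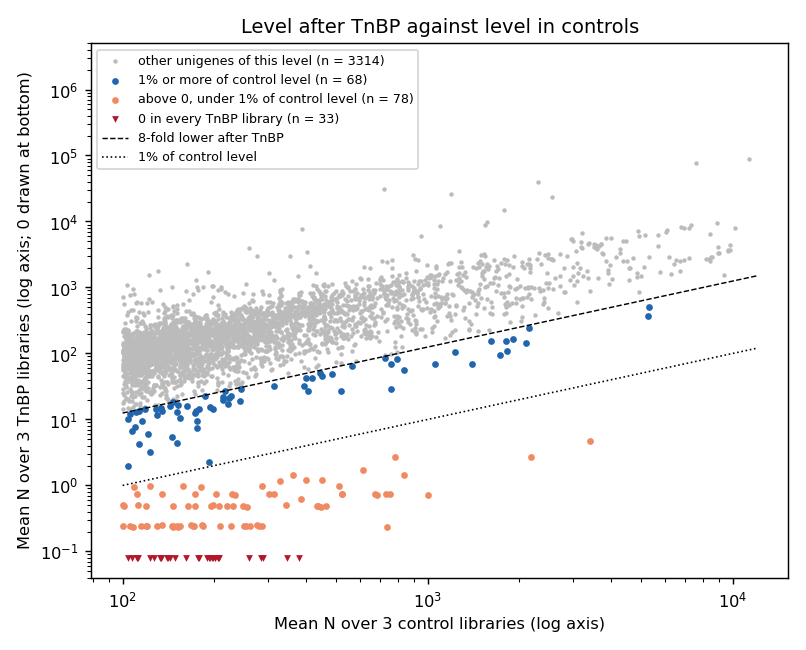
Mean N over the 3 TnBP libraries (vertical, log axis, with 0 drawn at the bottom) against mean N over the 3 control libraries (horizontal, log axis) for the 3493 unigenes of this level, 1 point each. The 68 members that kept 1% or more lie under the dashed line of 8-fold, most of them close to it, and the 111 others lie below the dotted line of 1%, with few between.

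A rule that swaps the groups gave 111 unigenes raised by TnBP, 3.40% of 3265 that met its other conditions. Of these, 4 were at 0 in every control library (3.60%) and 14 stood below 1% of their TnBP level (12.6%), against 33 (18.4%) and 111 (62.0%) among the members. In the same steps of fold they numbered 57, 29, 10, 11, 3, 1 and 0. Control libraries have the smaller size factors, so the same few counts there stand for a higher N. The steps of the largest folds are thus harder to reach in this set than among the members. Both sets were chosen by size of change, and the difference between them was not tested.

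Together the members took 0.0507% ± 0.0163 of the counts in TnBP libraries and 0.655% ± 0.0250 in control libraries (SD, n = 3). Their summed N was 4638, 2756 and 3146 in TnBP 1, 2 and 3, against 77330, 77120 and 73290 in control 1, 2 and 3. The pools of the exposed group differed more in relative terms than the control pools, with TnBP 1 the highest. All 179 passed the count filter of edgeR, and its quasi-likelihood test over all contigs called 179 of them lower, where it called 24.5% of 25353 tested contigs lower (Benjamini-Hochberg adjusted p under 0.05). The rule used the same contrast, so nothing is read from that count. Under library totals the test called 2831 contigs lower instead of 6211, or 17.1% of all calls instead of 50.4%, because totals place the median log2 change of tested contigs at 0.79 instead of 0.01. On that scale the smallest fold of a member with reads after TnBP was 4.83.

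**Figure D2:**
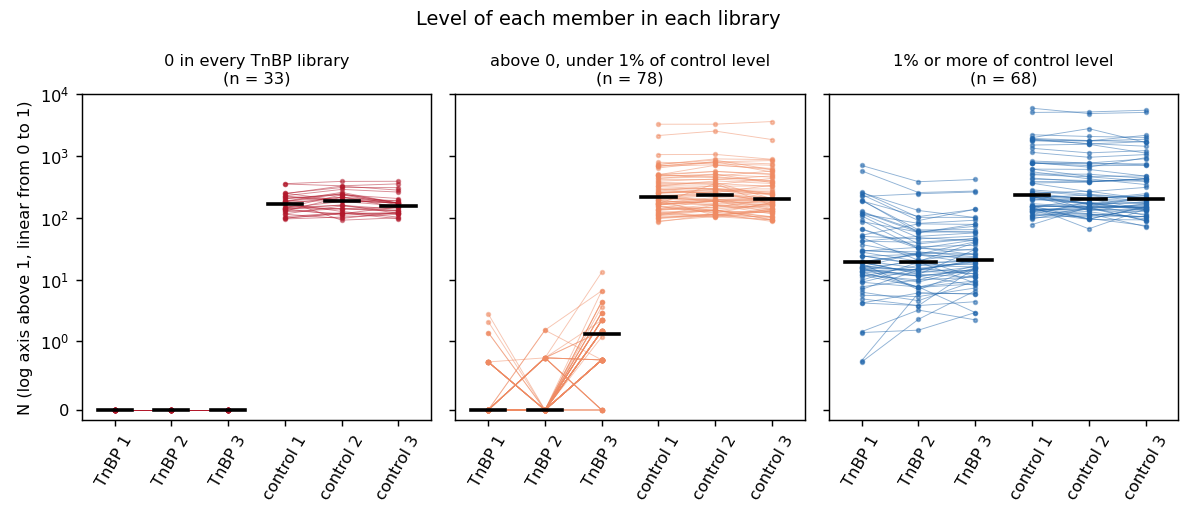
N of each member in each library, with TnBP libraries left of control libraries, for the 33 members at 0 in every TnBP library, the 78 others under 1% of their control level and the 68 that kept more. Thin lines join libraries of 1 group for each member and black bars are medians; in the middle panel only TnBP 3 has a median above 0.

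The 33 absent members had mean control N of 104 to 379, with a median of 177, and a median length of 483 bases. Unigene15021 (1050 bases) had N of 0, 0 and 0 in TnBP libraries, against 357, 389 and 391 in controls. That is 520-fold lower at the bound of 3 counts over the TnBP group. Unigene14396 (1395 bases, the longest of the absent members) was at 0 in all TnBP libraries and had 353, 330 and 355 in controls. It was 475-fold lower at that bound. Both were steady between control pools, and no exposed pool gave a single read.

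Unigene36319 (1054 bases) was at 0 in all TnBP libraries, against an N of 249, 310 and 309 in controls, 397-fold lower at the same bound. Unigene12744 (771 bases) was at 0 in all TnBP libraries, against 246, 328 and 281 in controls, 390.5-fold lower at the bound. Unigene13372 was also at 0 in all TnBP libraries, against 227, 289 and 262 in controls, 356-fold lower at the bound. It is only 258 bases long, so it had the highest level per length of these 5, a mean of 97.4 ± 14.1 FPKM in controls (SD, n = 3). Control 1 was the lowest of the control pools in all 3 of these members. Unigene22630 (265 bases), at 0 in all TnBP libraries, was among the members that varied most between control pools, with N of 189, 91.7 and 100.3 and a coefficient of variation of 42.5%. Bounds take 3 counts over the TnBP group, an N of 0.729, and cover counting error only.

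The 78 trace members had mean control N of 100.2 to 3397, with a median of 223, and kept 0.032% to 0.877% of it. Their summed TnBP counts ran from 1 to 19, with a median of 2, and 63 of them had at most 3. Unigene35733 (694 bases), the most abundant trace member, had N of 0, 0.76 and 13.2 in TnBP 1, 2 and 3, against 3282, 3283 and 3626 in controls. Over pooled counts that is 736-fold lower, with an exact 95% counting interval of 471 to 1222. The remainder was 18 counts in TnBP 3, 1 in TnBP 2 and 0 in TnBP 1.

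Unigene10478 (764 bases) had N of 0, 1.52 and 6.59 in TnBP libraries, against 2154, 2541 and 1852 in controls, 816-fold lower over pooled counts with an interval of 456 to 1635. Unigene15919 (770 bases) had 1.39, 0 and 6.59 in TnBP libraries, against 692, 806 and 847 in controls, 292-fold lower over pooled counts with an interval of 163 to 586. In these 3 members the exact Poisson 95% interval of TnBP 3 did not overlap that of the lowest TnBP library, and they were the only trace members of which this held. Unigene42585 (1033 bases) was highest in TnBP 1, with N of 2.79, 0 and 0.73 in TnBP libraries. These are 4, 0 and 1 counts, and its exposed pools agreed within counting error. Its controls, at 332, 325 and 330, varied least of all members, by 1.06%. Unigene7834 (286 bases) had 0, 0.76 and 1.46 in TnBP libraries and 170, 359 and 159 in controls, the largest variation between control pools, 49.2%, with control 2 standing apart.

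What little remained of absent and trace members lay mostly in TnBP 3. Over the 111 members, TnBP 1, 2 and 3 held 24, 17 and 172 counts, spread over 17, 15 and 69 members, and TnBP 3 was the highest TnBP library in 62 of the 78 trace members. As a share of the control level these sums were 0.0496% in TnBP 1 (exact Poisson 95% interval 0.0318 to 0.0738), 0.0383% in TnBP 2 (0.0223 to 0.0614) and 0.372% in TnBP 3 (0.320 to 0.434). The interval of TnBP 3 did not overlap those of the other exposed pools.

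The pooled share left in TnBP 3 was alike at every control level. It was 0.367% (0.287 to 0.464) for the 14 members with a control N of 500 or more, 0.376% (0.289 to 0.489) for the 39 from 200 to 500, and 0.376% (0.272 to 0.506) for the 58 below 200. TnBP 1 held 0.0300%, 0.0550% and 0.0748% and TnBP 2 held 0.0218%, 0.0200% and 0.0907% in the same order. Pooled over members, the remainder in TnBP 3 was thus near 1 proportion of the control level in each of these steps. Single members varied. Unigene15106 had an N of 0 in TnBP 3 against a control mean of 734, and Unigene15919 had 6.59 against 782. Members of the same step share libraries and size factors, and the intervals cover counting error only.

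**Figure D3:**
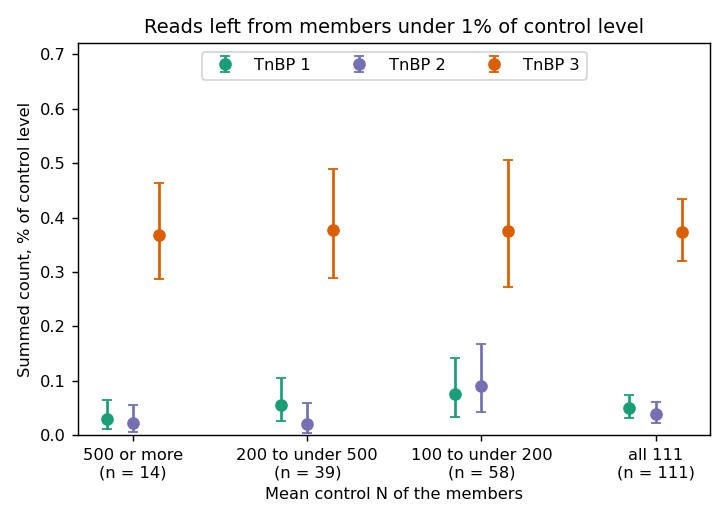
Summed counts of the 111 members under 1% of their control level, absent members included, as a percentage of their mean control level (vertical) in each TnBP library, by control N (horizontal). Points are pooled values with exact Poisson 95% intervals; TnBP 3 lies between 0.367% and 0.376% in every step, and TnBP 1 and TnBP 2 lie below 0.1%.

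Because TnBP 3 took part in the choice of members, the share was also read in unigenes chosen without it. Taking the same limits on length, share and control level, 111 unigenes stood below 1% in TnBP 1 and 2 together. TnBP 3 then held 0.372% of their control level and was at least 8-fold lower in 111 of 111. The number of unigenes, the summed count and the interval equalled those of the 111 members, so this is not a separate reading. In all these readings the mean of the other group was shared between choice and reading. Chosen without TnBP 1, 109 unigenes held 0.0499% (0.0320 to 0.0743) in TnBP 1. Chosen without TnBP 2, 110 held 0.0479% (0.0293 to 0.0724) in TnBP 2. Every one of these unigenes was at least 8-fold lower in the library that had no part in its choice. Swapping the groups, 11 to 13 unigenes below 1% in a pair of controls held 0.505% (0.224 to 0.928), 0.725% (0.414 to 1.18) and 0.565% (0.287 to 1.03) of their TnBP level in control 1, 2 and 3, with overlapping intervals. The source of the reads in TnBP 3 was not tested.

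Absent and trace members could not be separated at this depth. None of the 14 members with a control N of 500 or more was absent, against 10 of 39 from 200 to 500 and 23 of 58 below 200. At the pooled shares above, an absent member would have given 0.658 to 2.39 counts over all 3 TnBP libraries, with a median of 1.12. Without TnBP 3, the rule gave 173 members, of which 76 were at 0 in both remaining exposed pools, so the number at 0 rests on that library. The number below 1% was 106 without it. Of the trace members, 28 had a single count over the TnBP libraries.

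The 68 partial members kept a level that could be measured, with 8 to 2088 counts summed over the TnBP libraries. Unigene10193 (1681 bases) had N of 705, 385 and 418 in TnBP libraries and 5958, 4881 and 5097 in controls, 10.6-fold lower. Unigene47436 (965 bases) had 576, 257 and 272 in TnBP libraries and 5090, 5186 and 5530 in controls, 14.3-fold lower. It had the highest control level per length of all members, with 55.4 ± 29.2 FPKM after TnBP and 471 ± 27.1 FPKM in controls (SD, n = 3). In both, every control pool lay far above every exposed pool, and TnBP 1 stood above the other exposed pools by more than counting error.

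Unigene41597 (2145 bases) had N of 188, 105 and 137 in TnBP libraries and 2215, 2077 and 2007 in controls, 14.6-fold lower. Unigene32310 (1341 bases) had 195, 57.8 and 79.1 in TnBP libraries and 1852, 1758 and 1873 in controls, 16.5-fold lower. Unigene39642 (1396 bases) had 190, 63.9 and 64.4 in TnBP libraries and 1338, 1128 and 1226 in controls, 11.6-fold lower. In these 3 as well TnBP 1 was the highest exposed pool, at 1.56, 2.84 and 2.97 times the mean of the other pools, while the controls lay close together.

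An excess in TnBP 1 was frequent among the partial members whose exposed pools differed. The TnBP libraries of 22 partial members differed beyond counting error, and TnBP 1 was the highest in 18 of them, TnBP 2 in 0 and TnBP 3 in 4. Among the other 3314 unigenes of the same control level, 894 differed likewise (27.0%), with TnBP 1 the highest in 115, TnBP 2 in 502 and TnBP 3 in 277. Of the 46 partial members that agreed, TnBP 1 was the highest in 15, TnBP 2 in 12 and TnBP 3 in 19, and N in TnBP 1 was a median of 0.928 times the mean of the other exposed pools. A clear excess in any pool places a member among those that differ, so the values of the 46 give no independent contrast. Over all 68 that median was 1.10, and TnBP 1 was the highest in 33. Among the 18, N in TnBP 1 was 1.34 to 2.97 times the mean of TnBP 2 and 3, with a median of 2.11. Relative to the control mean they kept 6.72% to 19.0% in TnBP 1 (median 13.2%), 3.16% to 8.06% in TnBP 2 (median 5.70%) and 4.03% to 10.1% in TnBP 3 (median 6.41%). They had mean control N of 393 to 5312, lengths of 892 to 3539 bases and whole-number counts in all 6 libraries in 18 of 18. Of the 19 partial members with a control N of 500 or more, 14 were among the 18. A difference beyond counting error is more readily seen at high counts, which favours such members.

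The control pools lay closer together in these 18, although control 2 was the highest control in 0 of them. Control 1, 2 and 3 stood at a median of 1.09, 0.945 and 0.993 times the mean of the other controls. The longest member, Unigene22477 (3539 bases), belongs to the 18 with N of 116, 81.4 and 91.5 in TnBP libraries and 1882, 1575 and 1711 in controls. So does the next longest, Unigene37049 (3049 bases), with 37.0, 25.1 and 18.3 in TnBP libraries and 424, 402 and 392 in controls. In both, TnBP 1 was the highest exposed pool by a smaller margin, 1.34 and 1.70 times the others.

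The excess in TnBP 1 was most frequent at 8 to 16 times lower and rare at smaller changes. N in TnBP 1 was at least 1.5 times the mean of TnBP 2 and 3 in 23 of 68 partial members (33.8%), against 7 of 3314 other unigenes of the same control level (0.211%). By size of change the share was 14.3% of 14 partial members 16 or more times lower, where the median ratio was 0.78, and 38.9% of 54 unigenes 8 to 16 times lower, where the median was 1.17. It was 1.68% of 179 unigenes 4 to 8 times lower, 0.479% of 627 at 2 to 4 times lower, 0.0854% of 1171 at under 2-fold lower, and 0% of those higher after TnBP. The medians of that ratio ran from 0.90 to 0.97 outside the members, on a scale that already takes out the size factor. Unigenes at lower counts scatter more, and the members have the fewest TnBP counts, which the 95% intervals take into account in the count of 18 but not in these shares. The number of 18 was 16 with 99% intervals, 7 under library totals, where 110 members remained, and 14 and 15 without TnBP 2 and TnBP 3. What sets TnBP 1 apart in these members was not tested.

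**Figure D4:**
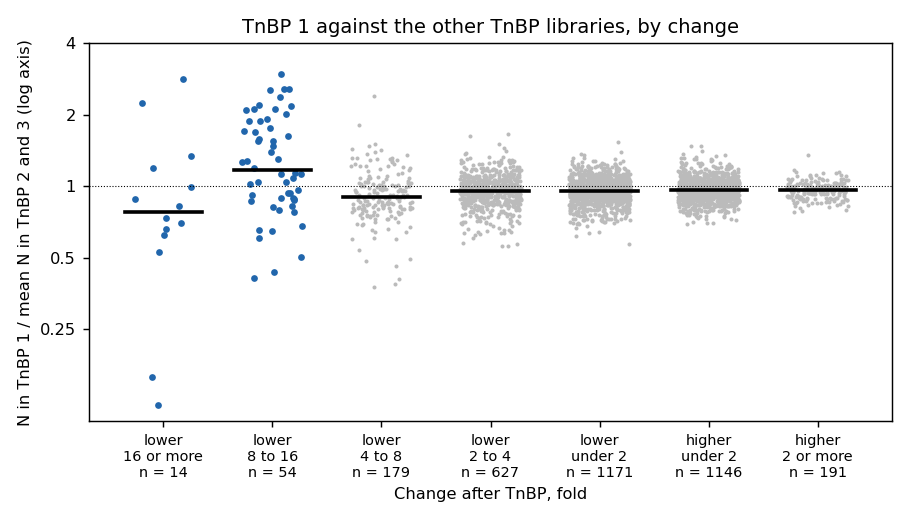
N in TnBP 1 divided by the mean N in TnBP 2 and 3 (vertical, log axis) for unigenes with a control N of at least 100, by change after TnBP (horizontal); absent and trace members are left out, blue points are partial members and black bars are medians. Ratios near 2 are frequent at 8 to 16 times lower, where 38.9% reach 1.5 and the median is 1.17, and rare in every class with a smaller change; in the 14 partial members 16 or more times lower, 14.3% reach 1.5 and the median is 0.78.

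The other 46 partial members agreed within counting error between exposed pools. Unigene40295 (1121 bases) had N of 222, 246 and 262 in TnBP libraries and 1989, 2783 and 1665 in controls, 8.82-fold lower. Here the control pools varied more than the exposed ones. Its counts were not whole numbers, so part of its reads was divided with another contig and its level is uncertain.

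Unigene33527 (2017 bases) had 52.3, 79.8 and 78.4 in TnBP libraries and 1509, 1552 and 1120 in controls, 19.9-fold lower. TnBP 1 was the lowest of its exposed pools, opposite to the 18. Unigene32311 (1272 bases) had 87.1, 58.6 and 59.3 in TnBP libraries and 771, 747 and 750 in controls, 11.1-fold lower. TnBP 1 was again the highest, but its interval overlapped that of the lowest pool. Unigene5601 (793 bases) had 41.8, 50.2 and 57.1 in TnBP libraries and 558, 428 and 347 in controls, 8.94-fold lower. Many of the 46 are low: their mean N after TnBP had a median of 14.6, where counting error is wide and agreement says little.

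In 4 partial members TnBP 3 was the highest beyond counting error, among them the shortest member. Unigene38776 (206 bases) had N of 4.18, 3.80 and 15.4 in TnBP libraries and 141, 117 and 72.4 in controls. Unigene19612 (201 bases) had 6.96, 14.3 and 19.7 in TnBP libraries and 222, 131 and 169 in controls. Unigene2718, also 206 bases long, had 11.2, 17.0 and 16.02 in TnBP libraries and 127, 164 and 110 in controls, and its exposed pools agreed. Unigene19612 and Unigene2718 have counts that are not whole. Unigene41544 (825 bases) was among the steadiest members in controls, at 109, 107 and 105 with a variation of 1.60%, against 6.27, 4.56 and 9.52 in TnBP libraries.

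The members were short for their level. Their median length was 673 bases (quartiles 403 and 922.5), against 1341 bases (837 and 2057) in the other 3314 unigenes of the same control level. Absent members had a median of 483 bases, trace members 694 and partial members 776. Within the partial class, members whose exposed pools differed had a median of 1191 bases and those that agreed 584. Their median control N was 816 and 168. Intervals are narrower at high counts, so a difference is more readily seen there, and length and level cannot be told apart here. Only 20.7% of members reached 1000 bases, against 66.5% of the others. Length entered the rule only through the limit of 5000 bases, and a short contig needs a higher level per length to reach the same N. Per length the members were accordingly high in controls, with a median of 33.5 FPKM, against 15.6 FPKM for the others.

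**Figure D5:**
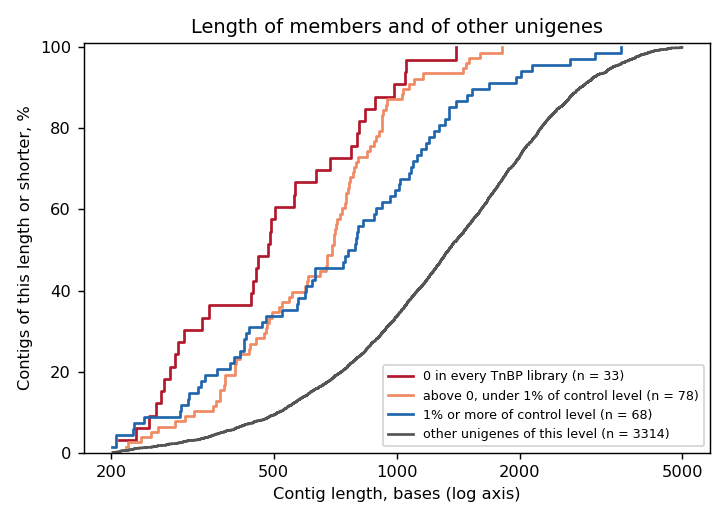
Percentage of contigs at or below a given length (vertical) against length in bases (horizontal, log axis) for absent, trace and partial members and for the 3314 other unigenes of the same control level. The curves of the members lie to the left, with medians of 483, 694 and 776 bases against 1341.

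Few members shared reads with other contigs. The control libraries show this for every class, since absent and trace members have few or no counts after TnBP that could be divided. Expected counts were whole numbers, to the 2 decimals of the files, in all 3 control libraries for 164 of 179 members (91.6%), against 71.5% of the other unigenes of the same level. The share was 97.0% of absent, 96.2% of trace and 83.8% of partial members. RSEM divides a read that matches several contigs between them, which gives counts that are not whole, and most members showed no sign of it.

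The control pool with the highest value differed between classes. Control 2 was the highest control in 61 of the 111 absent and trace members, control 1 in 25 and control 3 in 25. In partial members control 1 was the highest in 40 of 68, control 2 in 13 and control 3 in 15. In the other unigenes of this level the shares were 33.9%, 37.8% and 28.3% for control 1, 2 and 3. The differences in summed level were small, with N of 33120, 35710 and 32380 for absent and trace members and of 44210, 41410 and 40910 for partial members. The median coefficient of variation between control pools was 11.9% in members and 10.3% in the other unigenes.

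Some members carry consecutive unigene numbers. Counted once for each member, 37 unigenes of the same level are next in number to a member, and 14 of them are members themselves (37.8%), where members are 5.13% of that level. They form 7 pairs, and in 7 of 7 both are partial or neither is. The partial pairs are Unigene22476 with Unigene22477, Unigene32310 with Unigene32311 and Unigene40295 with Unigene40296. The others are Unigene13254 with Unigene13255, Unigene14622 with Unigene14623, Unigene24320 with Unigene24321, and Unigene36190 with Unigene36191. In 6 of the 7 pairs both have whole counts. The files do not say what neighbouring numbers share, and whether some members are pieces of 1 transcript was not tested.

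Members chosen without 1 library were mostly low in it too. Without TnBP 1, 2 or 3 the rule chose 171, 171 and 173 unigenes, and the left-out library was at least 8-fold below the control mean in 153, 160 and 156 of them. Among all unigenes of the same level the left-out library was as low in 174 of 3287, 177 of 3343 and 170 of 3314. At 4-fold the left-out library was low in 171, 170 and 172 of those chosen, and in 369, 354 and 346 of all. Without control 1, 2 or 3 the rule chose 192, 189 and 191, and the left-out control was at least 8 times the TnBP mean in 182, 181 and 174. Among all unigenes of that level it was as high in 194 of 3760, 195 of 3667 and 178 of 3701. The control mean was shared between choice and reading where a TnBP library was left out.

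Values near the limits show where the rule stops. Just inside the 8-fold limit, Unigene5764 had N of 29.3, 28.1 and 23.4 in TnBP libraries and 210.5, 235 and 203 in controls, 8.02-fold lower, and Unigene46523 was 8.03-fold lower. Just outside it, Unigene18717 was 7.96-fold and Unigene26260 7.91-fold lower, the lower fold belonging to a unigene with 7.10, 6.68 and 29.8 in TnBP libraries and 147, 100.78 and 97.2 in controls. Just inside the level limit, Unigene7283 and Unigene35746 averaged 0.50 and 0.24 in TnBP libraries, against 100.22 and 100.48 in controls. Just outside it, Unigene35157 and Unigene24940 were at 0 in every TnBP library, with means of 99.01 and 98.97 in controls.

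The limit on share kept out 1 unigene, the limit on length 0 and the condition on overlap 0. That unigene, Unigene32747 (777 bases), had N of 4.88, 6.08 and 90.8 in TnBP libraries and 20173, 16960 and 21676 in controls, 578-fold lower. Like 62 of the 78 trace members, it was highest in TnBP 3.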

How the data were processed

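RNA from pooled earthworm intestine was sequenced in 3 TnBP and 3 control libraries. Per the file headers, the deposited tables give for each contig its length, the expected count and the FPKM (fragments per kilobase of contig, scaled to the sequenced fragments of the library). Per the submitters' processing notes, the tools named are Bowtie 0.12.2 and RSEM. The notes name the build mm8, a mouse assembly, while the identifiers in the tables are those of Eisenia fetida contigs; how that build was used is not given in the sources used here. Expected counts estimated by the authors were divided by DESeq2 size factors, from contigs above 0 in all 6 libraries, to give N, and a contig missing from a table was set to 0. The FPKM deposited by the authors were used only for levels per length and as an alternative for the rule.

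For the fit over all contigs, expected counts were rounded, filtered with filterByExpr (minimum count 10), scaled by TMM and tested with edgeR's quasi-likelihood test (edgeR 4.0.16, R 4.3.3) with Benjamini-Hochberg adjustment, and with DESeq2 1.42.0 as an alternative; the fit was tested on simulated data. Intervals are exact Poisson 95% intervals and cover counting error only, with each interval of N treating the size factor as known. TnBP libraries of a member are said to differ where the intervals of the highest and lowest do not overlap.

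The members and the classes described were chosen with earlier results of these data known. Members named are the 6 with the highest control N, the 5 most abundant in controls among those at 0, the 6 whose TnBP libraries differ most, the 4 most abundant after TnBP among those that agree, the longest and shortest 2, the 2 with the highest and the 2 with the lowest control variation, and the nearest 2 on each side of the fold and level limits. Unigene32747 and the pairs with consecutive numbers were named after their values were seen. The alternatives tried were other scalings, FPKM, other limits, other intervals, leaving out each library and a replicate block.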

Additional observations from a re-analysis of the deposited data

How the results depend on the processing

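The number of members was 179 and became 110 under library totals, 358 at a 4-fold limit, 322 at a control N of 50 and 88 at a control N of 200; 110 of the 110 under library totals were among the 179. It was 171 to 192 when each library was left out. The 33 members at 0 became 96 when up to 3 summed counts were allowed, and 36 to 76 when each library was left out, with 76 without TnBP 3. The 25 members whose TnBP libraries differed became 10 under library totals and 15 when the highest had to be at least 4 times the lowest, and 6 to 27 when each library was left out, with 6 without TnBP 1 and 15 without TnBP 3. The 18 partial members with TnBP 1 highest became 7 under library totals. The members' summed share in controls was 0.869% from FPKM, against 0.655% from counts. Contigs called lower were 6211, and 2831 under library totals. These causes were not tested. The number of members below 1% was 111 and lay between 91 and 122 under the alternatives run, which were chosen after seeing the data. Of the log2 ratios of named members under other scalings and with libraries left out, chosen likewise, 174 stayed within the spread between replicates, 34 moved by more and 0 reversed. The 8-fold limit and the condition on overlap left no room for a reversal, so that 0 says nothing about stability. For absent members the value is the bound from 3 counts, which shifts when a TnBP library is left out. That of Unigene15021 went from -9.02 to -8.4, -8.46 and -8.43 without TnBP 1, 2 and 3, each counted as moved.

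Same-numbered TnBP and control libraries had correlations of deviation of -0.003, 0.045 and -0.016, so no sign of pairing by number was seen. Such values cannot exclude that same-numbered libraries were handled together. With the replicate block, edgeR called 11253 contigs, against 12321 without it.

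Depth limits the absent and trace members most, since 63 of 78 trace members rest on at most 3 counts. Each pool mixes 3 worms, and there are 3 pools a group.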
